A study of Mus musculus with 9 samples.

Results

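The keratin genes encode the intermediate filament proteins of epithelial cells. Members were taken as every protein-coding gene in the count files whose mouse symbol is Krt followed by a number and at most 1 letter, which gave 53 of 47643 genes, and no expression value entered that rule. Members and lists were nonetheless chosen with earlier results of these data known. Of the 53, 5 were grouped as simple keratins (Krt7, Krt8, Krt18, Krt19 and Krt20), 21 as keratins of stratified epithelia, 23 as hair and root sheath keratins and 4 as other keratins (Krt23, Krt80, Krt88 and Krt222). By sequence family, 28 were type I (acidic) and 25 type II (basic or neutral).

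A keratin filament is built from pairs of 1 type I and 1 type II protein, and a keratin without a partner is usually unstable. Simple epithelia such as the pancreatic ducts use the type II keratins Krt8 and Krt7 with the type I keratins Krt18 and Krt19, and KRT19 is a standard marker of ducts and of pancreatic ductal adenocarcinoma (PDAC). Stratified epithelia use Krt5 with Krt14 in the basal layer and other pairs such as Krt1 with Krt10 above it. Vimentin, the filament protein of mesenchymal cells, often accompanies or replaces keratins when epithelial tumor cells take on mesenchymal features.

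The libraries came from PDAC tumors of mice in which Pdx1-Flp, active in the pancreatic lineage, deletes Trp53 and turns on green fluorescent protein (GFP). KPF mice carried Trp53 frt/+ together with Pdx-Flp and, at R26, FSF-CreER/Dual, and KPYYF mice had Yap flox/flox in addition. Mice of both genotypes received tamoxifen (TAM) in the diet once tumors could be felt, which activates CreER, replaces GFP with tdTomato (Tm) and, in KPYYF mice, deletes Yap. Cells were sorted by flow cytometry from digested tumors: GFP+Yap+ PDAC cells from KPF mice (6 libraries, 4269, 4435, 4504h, 4504s, 4515 and 4601) and Tm+Yap− PDAC cells from KPYYF mice, out of nodules that had regrown under TAM (3 libraries, 4449, 4891 and 4938). Genotype, Yap status, reporter color and regrowth after Yap loss changed together and cannot be told apart here. Mice of both sexes and of a range of ages were used in the study, with the age of each mouse not given in the sources used here. Libraries 4504h and 4504s share a mouse number apart from a letter, so p values measure the spread between libraries, which may in part be technical.

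Between 8116539 and 9635514 reads fell on genes in each library, so that 3 counts, the most that a count of 0 allows, corresponded to 0.311 to 0.370 CPM before scaling, counting error only. Levels are given as CPM, the count of a gene over the gene reads of its library on a common scale, with library sizes corrected by TMM. Reads of these 3′ end libraries come from one end of each transcript, so counts of different keratin genes were compared without division by length. Yap1 was at 41.8 to 151 CPM in the KPF libraries and at 0.712, 2.84 and 7.12 CPM in KPYYF libraries 4449, 4891 and 4938 (log2 fold change −4.79, SE 0.72, edgeR quasi-likelihood test, adjusted p = 0.0159), and that call was lost without library 4891 (adjusted p = 0.0553). Xist had 71 to 159 reads in KPF libraries 4269, 4515 and 4601 and at least 3452 reads in the other 6 libraries. The sorted cells expressed ductal epithelial markers in both groups, with all 9 of a list of 9 detected in every KPYYF library and 8 or 9 in each KPF library.

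Most keratin RNA in both groups came from the simple keratins. They made up 90.5 to 97.5% of the keratin counts of a library. All 53 keratins together took 0.214 to 0.596% of the gene reads in KPF libraries, with a median of 0.388%, and 0.128, 0.0537 and 0.0830% in KPYYF libraries 4449, 4891 and 4938. Their summed level was 4008 ± 1240 CPM (SD, n = 6) in GFP+Yap+ cells and 847 ± 367 CPM (SD, n = 3) in Tm+Yap− cells, and no KPYYF library reached the lowest KPF library, at 2579 CPM. In sorted bulk samples, fewer keratin-expressing cells and less keratin RNA per cell cannot be told apart.

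**Figure D1:**
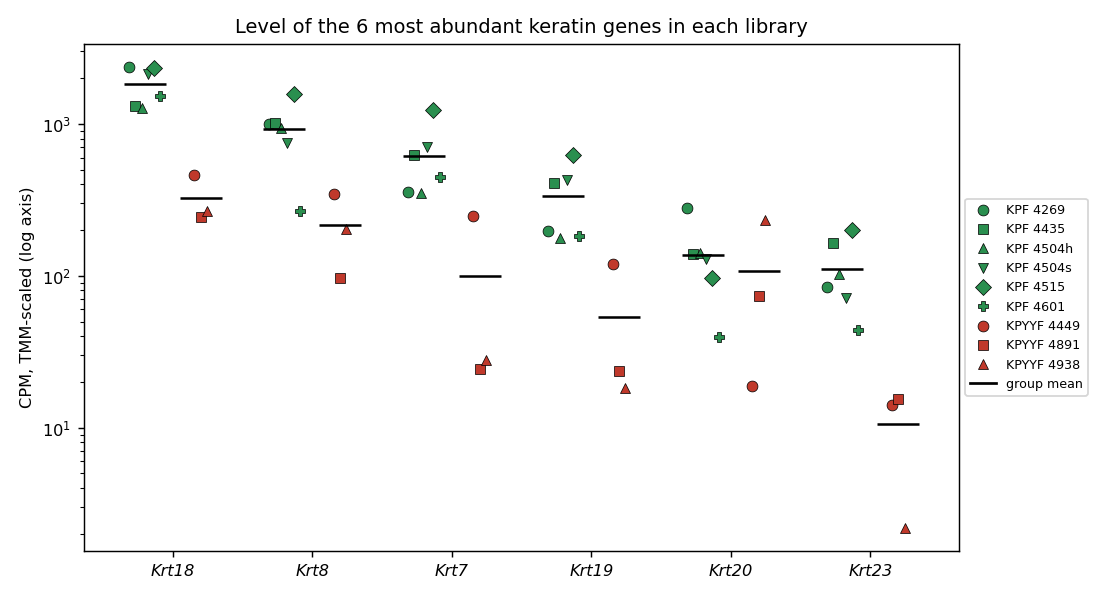
Level of the 6 most abundant keratin genes (CPM scaled by TMM, log axis) in each of 6 KPF (green) and 3 KPYYF (red) libraries, with black lines at the group means. Krt18, Krt7, Krt19 and Krt23 do not overlap between the groups, Krt8 overlaps through KPF library 4601, and the KPYYF values of Krt20 run from below the lowest to near the highest KPF value.

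Krt18 (ENSMUSG00000023043, chromosome 15 from 102028180 to 102032027 on the plus strand of GRCm38) is the type I partner of Krt8 and was the most abundant keratin in every library. Its level was 2365, 1307, 1278, 2134, 2329 and 1523 CPM in KPF libraries 4269, 4435, 4504h, 4504s, 4515 and 4601. In KPYYF libraries 4449, 4891 and 4938 it was 461, 243 and 268 CPM. The highest KPYYF library was thus below the lowest KPF library, and the means were 1822 ± 510 CPM (SD, n = 6) and 324 ± 119 CPM (SD, n = 3). The fall had a log2 fold change of −2.49 with a standard error of 0.34 (edgeR quasi-likelihood test, adjusted p = 0.0141). Of the 9 fits that left out 1 library, 7 kept this call, and it was lost without KPYYF library 4891 (adjusted p = 0.0529) or 4938 (adjusted p = 0.0557), which leaves 2 KPYYF libraries.

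Krt8 (ENSMUSG00000049382, chromosome 15 from 101996698 to 102004482, minus strand), the type II partner, lies head to head with Krt18 at a distance of 23697 bases. It was at 995, 1018, 944, 746, 1576 and 267 CPM in the KPF libraries in the same order, and at 345, 97.3 and 202 CPM in the KPYYF libraries. KPF library 4601 was below KPYYF library 4449, so the groups overlapped. The log2 fold change of −2.11 (SE 0.53) did not pass the threshold in the edgeR quasi-likelihood test (adjusted p = 0.0863). It passed without KPF library 4601, at −2.29 (adjusted p = 0.0221). In library 4601 immune markers summed to 9796 CPM, against 387 to 1485 CPM in the other 8 libraries, and their part in its Krt8 level was not tested.

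Krt7 (ENSMUSG00000023039, chromosome 15 from 101411043 to 101430313, plus strand), a type II keratin of ducts and other glandular epithelia, was at 356, 623, 352, 702, 1226 and 449 CPM in the KPF libraries. It was at 246, 24.5 and 27.9 CPM in KPYYF libraries 4449, 4891 and 4938. Library 4449 was close to the lowest KPF libraries, and the other two were over an order of magnitude below any of them. Krt19 (ENSMUSG00000020911, chromosome 11 from 100140810 to 100148665, minus strand), the type I duct marker, showed the same arrangement, at 198, 405, 176, 426, 620 and 183 CPM in KPF and 119, 23.7 and 18.2 CPM in KPYYF libraries. Both genes separated the groups without overlap, with log2 fold changes of −2.63 (SE 0.82) for Krt7 and −2.64 (SE 0.71) for Krt19. Neither passed over all genes (edgeR quasi-likelihood test, adjusted p = 0.149 and 0.108). With library 4449 left out both did, at −4.56 for Krt7 (adjusted p = 0.00890) and −4.0 for Krt19 (adjusted p = 0.0148). An exact permutation test over the 84 ways to assign the group labels gave p = 0.0119 for each, which is the smallest value it can give and is not adjusted for the genes tested.

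Krt20 (ENSMUSG00000035775, chromosome 11 from 99428403 to 99438150, minus strand), a type I keratin best known from intestinal, gastric and urothelial surface cells, did not share this pattern. It was at 279, 139, 141, 129, 96.3 and 39.6 CPM in the KPF libraries and at 18.8, 73.0 and 233 CPM in KPYYF libraries 4449, 4891 and 4938. The lowest and nearly the highest of the 9 values were therefore both KPYYF libraries. The log2 fold change was −0.34 (SE 0.70, edgeR quasi-likelihood test, adjusted p = 0.872), and it moved to −1.58 without library 4938 (adjusted p = 0.348) and to 0.16 without library 4449 (adjusted p = 0.938).

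The 250 bases before the RefSeq start are shown for the abundant simple keratins in the promoter table, so that the partners Krt18 and Krt8, Krt7 and Krt20 can be read side by side. Sequences are from the RefSeq annotation of GRCm38.p6, where 36 of the 53 keratin genes matched, and each is written 5′ to 3′ on the strand of its gene. Capitals mark matches, on either strand, to 8 short motifs. Those with a match are TATAAA (the core promoter element), GGAATG (known from TEAD factors, the DNA-binding partners of Yap), CAGGTG (an E-box known from Snail and Zeb repressors) and GGGCGG (the GC box).
Krt18, chr15:102027966-102028215, plus strand: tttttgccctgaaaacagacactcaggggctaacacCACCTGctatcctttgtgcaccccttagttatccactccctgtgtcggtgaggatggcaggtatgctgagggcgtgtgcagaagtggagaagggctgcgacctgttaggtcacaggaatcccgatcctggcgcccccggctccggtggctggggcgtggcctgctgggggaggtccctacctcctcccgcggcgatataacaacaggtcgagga
Krt8, chr15:102004343-102004592, minus strand: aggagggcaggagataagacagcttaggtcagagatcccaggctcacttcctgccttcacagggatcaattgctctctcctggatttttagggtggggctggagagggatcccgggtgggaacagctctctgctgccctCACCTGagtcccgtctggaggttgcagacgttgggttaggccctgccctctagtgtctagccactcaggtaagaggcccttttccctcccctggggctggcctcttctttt
Krt7, chr15:101412153-101412402, plus strand: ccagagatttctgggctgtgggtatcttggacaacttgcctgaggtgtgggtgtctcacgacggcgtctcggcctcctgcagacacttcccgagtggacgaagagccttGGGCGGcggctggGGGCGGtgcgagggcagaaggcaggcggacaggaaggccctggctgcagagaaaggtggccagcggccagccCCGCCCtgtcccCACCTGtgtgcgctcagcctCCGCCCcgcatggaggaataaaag
Krt20, chr11:99438154-99438403, minus strand: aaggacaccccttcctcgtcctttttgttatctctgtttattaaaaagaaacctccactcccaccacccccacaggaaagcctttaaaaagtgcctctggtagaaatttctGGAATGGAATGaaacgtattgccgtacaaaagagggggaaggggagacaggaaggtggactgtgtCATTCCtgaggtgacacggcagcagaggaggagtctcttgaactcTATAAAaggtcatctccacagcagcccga

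Krt18, Krt8 and Krt7 each held 1 match to CAGGTG, at 214 to 209, 111 to 106 and 44 to 39 bases before the start, and 17.2% of all 32851 promoters of this length held one. The Krt20 window held none of these and was the only one of the 4 with GGAATG, in 3 matches at 139 to 134, 134 to 129 and 74 to 69 bases before the start, the first 2 of which share a base. At least 1 match to GGAATG was found in 12.6% of all promoters, and the share with 3 was not counted. Krt20 also held TATAAA at 29 to 24 bases before the start (12.4% of promoters). Krt7 held 4 copies of GGGCGG, of which 32.7% of promoters held at least 1, and the share with 4 was not counted. The other 4 motifs had no match in these windows. They were TGANTCA of AP-1 (6.75% of promoters), CCACACCC of Klf factors (3.2%), AACCGGTT of Grainyhead factors (0.116%) and TGTTTAC of forkhead factors (3.17%). A match is a run of letters and no measurement of binding.

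Of the 15 keratins with enough counts to be tested, 11 had a log2 fold change below 0 and 4 above, and 53.3% of all genes tested were below 0. An adjusted p under 0.05 was reached by 2 keratins, both lower in Tm+Yap− cells (Krt18 and Krt23), against 0.794% of the 14105 genes tested. No keratin passed in the other direction, where 0.305% of genes did. On that side 0 keratins had an unadjusted p under 0.05 by edgeR (6.1% of genes), 0 had an adjusted p under 0.05 by DESeq2 (1.91% of genes), and 0 had all KPYYF libraries above all KPF libraries (3.92% of genes). At an unadjusted p under 0.05, 7 keratins were lower (Krt18, Krt8, Krt7, Krt19, Krt23, Krt4 and Krt79), against 10% of all genes tested. In 5 of them (Krt18, Krt7, Krt19, Krt23 and Krt79) the 3 KPYYF libraries all lay below the 6 KPF libraries, which held for 5.18% of genes. DESeq2 called the same 7 at an adjusted p under 0.05, where it called 6.58% of all genes lower. On counts simulated with the dispersions that edgeR estimated, 36.3% of DESeq2 calls were false, against 7.06% for edgeR. There edgeR recovered 18.1% of 4-fold changes and DESeq2 38.3%, so a gene that did not pass need not be unchanged. Genes such as Krt4 and Krt79 reached the count minimum through the KPF libraries, the group where they were higher. A gene as low in both groups as they were in KPYYF libraries would not have been tested. These counts therefore describe the tested members and not all 53, and the members were chosen with earlier results of these data known.

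The 5 simple keratins had a median log2 fold change of −2.49, from −2.64 to −0.34, beside a median of −0.07 over all genes tested. The 9 tested stratified keratins had a median of −0.12, from −6.73 to 0.96, with 5 below 0 and 4 above, and that median was −2.20 without KPYYF library 4938. By sequence family, 7 of 10 tested type I keratins and 4 of 5 tested type II keratins had a log2 fold change below 0 (53.3% of all genes tested).

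**Figure D2:**
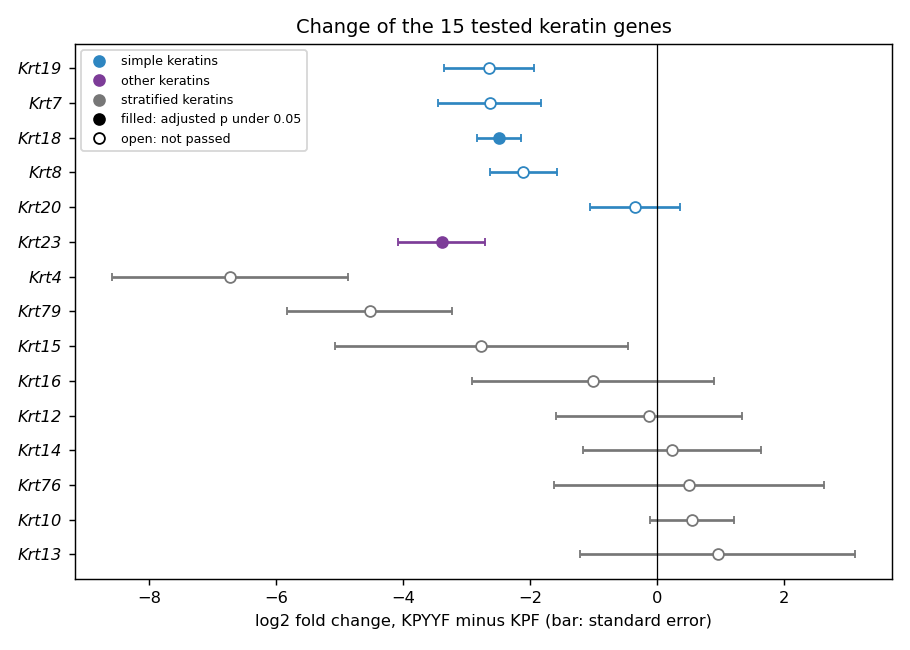
Log2 fold change (KPYYF minus KPF) of the 15 tested keratin genes, with bars of 1 standard error, filled where the adjusted p was under 0.05. The simple keratins other than Krt20 lie between −2.64 and −2.11, and the stratified keratins scatter on both sides of 0 with mostly wider bars.

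Krt23 (ENSMUSG00000006777, chromosome 11 from 99477974 to 99493137, minus strand) is a type I keratin found in glandular epithelia and in several adenocarcinomas. It was at 84.9, 163, 103, 71.9, 199.7 and 43.7 CPM in KPF libraries and at 14.0, 15.5 and 2.19 CPM in KPYYF libraries 4449, 4891 and 4938, without overlap. The log2 fold change was −3.39 (SE 0.69, edgeR quasi-likelihood test, adjusted p = 0.0384), and unlike Krt7 and Krt19 it was low in library 4449 as well. This call is close to the threshold: of the fits that left out 1 library, 8 of 9 put the adjusted p between 0.0569 and 0.0889, and it passed only without KPF library 4601 (adjusted p = 0.0263). It was also lost when libraries 4504h and 4504s were summed as 1 library (adjusted p = 0.0562).

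The make-up of the keratin counts differed between libraries. Krt20 was 1.54 to 6.49% of keratin counts in KPF libraries and 1.52% in KPYYF library 4449. It was 14.3% in library 4891 (exact 95% binomial interval 13.3 to 15.4%) and 29.4% in library 4938 (28.3 to 30.4%), both above every KPF library. Krt7 moved the other way, from 8.28 to 20.0% in KPF libraries and 19.9% in library 4449 to 4.8% in library 4891 and 3.52% in library 4938. Krt19 was 4.61 to 10.9% in KPF libraries, 9.62% in library 4449, 4.65% in library 4891 and 2.29% in library 4938. The shares of Krt18 (35.0 to 59.1% in KPF and 33.7 to 47.7% in KPYYF libraries) and of Krt8 (10.4 to 31.0% and 19.1 to 27.9%) overlapped widely. KPYYF library 4449 thus had less keratin RNA than any KPF library with shares of Krt18, Krt8, Krt7 and Krt19 inside the KPF range, that of Krt20 just below it and that of Krt23 below it (1.13% against at least 1.69%), and libraries 4891 and 4938 differed in make-up too. The intervals cover counting error only.

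**Figure D3:**
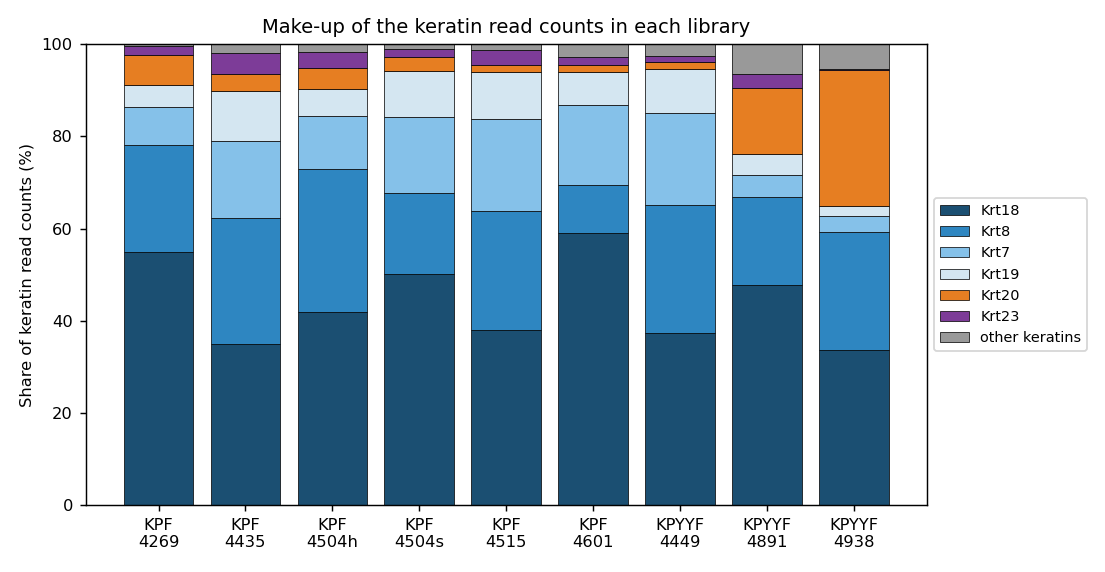
Make-up of the keratin read counts in each library, as the percent of all counts on the 53 keratin genes taken by Krt18, Krt8, Krt7, Krt19, Krt20, Krt23 and the remaining keratins. Krt20 (orange) takes 14.3% and 29.4% in KPYYF libraries 4891 and 4938 and at most 6.49% in the other 7 libraries.

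The ratio of type II to type I keratin counts, whose proteins pair in equal numbers, was 0.422 to 0.873 in KPF libraries and 0.917, 0.323 and 0.436 in KPYYF libraries 4449, 4891 and 4938, so it did not separate the groups. The Krt8 to Krt18 ratio was 0.176 to 0.779 in KPF libraries, with the lowest value in library 4601, and 0.748, 0.401 and 0.754 in KPYYF libraries. The Krt7 to Krt19 ratio was 1.54 to 2.46 in KPF libraries and 2.07, 1.03 and 1.54 in KPYYF libraries. The Krt20 to Krt18 ratio was 0.0260 to 0.118 in KPF libraries and 0.0407 in library 4449, and 0.301 and 0.870 in libraries 4891 and 4938.

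The keratins of stratified epithelia were scarce. Together with the hair keratins they held 230 to 749 counts in a KPF library, or 0.520 to 2.82% of keratin counts, and 281, 299 and 386 counts in the KPYYF libraries, or 2.70, 6.41 and 5.33%. Their counts overlapped between the groups only through KPF library 4269, with 230 counts, and every other KPF library was above all KPYYF libraries. The mean was 527 counts in KPF and 322 counts in KPYYF libraries, before any scaling. Their share of keratin counts was higher in KPYYF libraries on average because the keratin total was lower by more. The basal keratin Krt14 was at 0 to 15.7 CPM in KPF and at 9.38, 2.30 and 8.44 CPM in KPYYF libraries 4449, 4891 and 4938 (log2 fold change 0.24, edgeR quasi-likelihood test, adjusted p = 0.960). Its partner Krt5 had 6 counts in all, each of them in KPF library 4435.

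Krt4, a type II keratin of the suprabasal layers of internal stratified epithelia such as the esophagus, had 1, 129, 12, 36, 353 and 162 counts in the KPF libraries and 2, 1 and 0 counts in the KPYYF libraries. Those are 0.0973, 13.2, 1.23, 4.10, 39.1 and 23.6 CPM against 0.237, 0.109 and 0 CPM, and the groups overlapped through KPF library 4269. The ratio of pooled levels was 113, with an interval of 38.6 to 550 that covers counting error only. The fitted log2 fold change of −6.73 (SE 1.86) depends on the prior count at so few reads, and it did not pass (edgeR quasi-likelihood test, adjusted p = 0.105). Krt79, a type II keratin of sebaceous ducts and hair follicle openings, was at 4.77, 29.2, 1.02, 1.82, 11.2 and 16.5 CPM in KPF libraries and 0.594, 0.219 and 0.548 CPM in KPYYF libraries. It separated the groups (log2 fold change −4.53, SE 1.30) without passing (edgeR quasi-likelihood test, adjusted p = 0.115). Like Krt4, it reached the count minimum through the KPF libraries, the group where it was higher. Both genes were highest in the same 3 KPF libraries, 4435, 4515 and 4601.

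Krt10, the suprabasal keratin of the epidermis, was at 9.05, 7.27, 25.9, 7.97, 8.19 and 2.48 CPM in KPF and 15.4, 18.2 and 11.2 CPM in KPYYF libraries. Each KPYYF library was above 5 of the 6 KPF libraries, and library 4504h was above all of them (log2 fold change 0.56, SE 0.66, edgeR quasi-likelihood test, adjusted p = 0.749). The other 5 tested stratified keratins had adjusted p values from 0.612 to 0.981 and standard errors of at least 1.47. Krt12, known from the cornea, was at 0 to 8.46 CPM in KPF and 0, 5.47 and 6.03 CPM in KPYYF libraries. Krt16, a keratin of activated keratinocytes, was at 0 to 7.08 CPM in KPF and 0.356, 0 and 5.15 CPM in KPYYF libraries. Krt15, a basal keratin, was at 0 to 7.53 CPM in KPF and 0.237, 0.765 and 0 CPM in KPYYF libraries. The mucosal keratins Krt76 and Krt13 reached 10.6 CPM in KPYYF library 4938 and 7.01 CPM in KPYYF library 4449, and 9.61 and 5.74 CPM in their highest KPF libraries.

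The other 38 members were not tested. No count at all was found for 23 of them, including 17 of the 23 hair and root sheath keratins. The remaining 15 had few counts, mostly from a single library. Krt17, a basal and stress-responsive keratin, had 76 counts, 40 of them in KPF library 4504s and 30 in KPYYF library 4891. Krt6a, a keratin of wounded epidermis, had 52, of which 48 were in KPF library 4601. Krt78 had 54 (31 in KPF library 4435 and 18 in 4515), Krt27 had 52 (50 in KPF library 4435), Krt83 had 43 (17 in KPF library 4504h and 23 in 4504s) and Krt75 had 20 (19 in KPYYF library 4891). The others had at most 11 counts each. In a fit with no filter on low counts none of these 15 passed over all genes (edgeR adjusted p of at least 0.240), and Krt75, whose counts come almost wholly from 1 library, was the only one with an unadjusted p under 0.05.

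For the 15 tested keratins, 251 windows of 50 bases along the last 300 bases of the longest GENCODE transcript were searched in all other genes' transcripts, and 0 of them had an exact match. Near matches were not searched.

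Vim, which encodes vimentin, was abundant in both groups, between 601 and 2358 CPM in KPF libraries and 747, 1692 and 2935 CPM in KPYYF libraries 4449, 4891 and 4938 (log2 fold change 0.35, SE 0.49, edgeR quasi-likelihood test, adjusted p = 0.794). The ratio of Vim to summed keratin levels was 0.0980 to 0.773 in KPF libraries and 0.604 in library 4449, and it was 3.32 in library 4891 and 3.70 in library 4938. The same 2 libraries thus had both the larger Krt20 share and more Vim than keratin RNA, and library 4449 lay within the KPF range on the ratio. Of 16 other intermediate filament genes, including Des, Nes, the neurofilament genes and the lamins, 10 were tested, 2 with a log2 fold change below 0 and 8 above, and none had an adjusted or unadjusted p under 0.05. Their median was 0.26, and 53.3% of all genes tested were below 0.

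**Figure D4:**
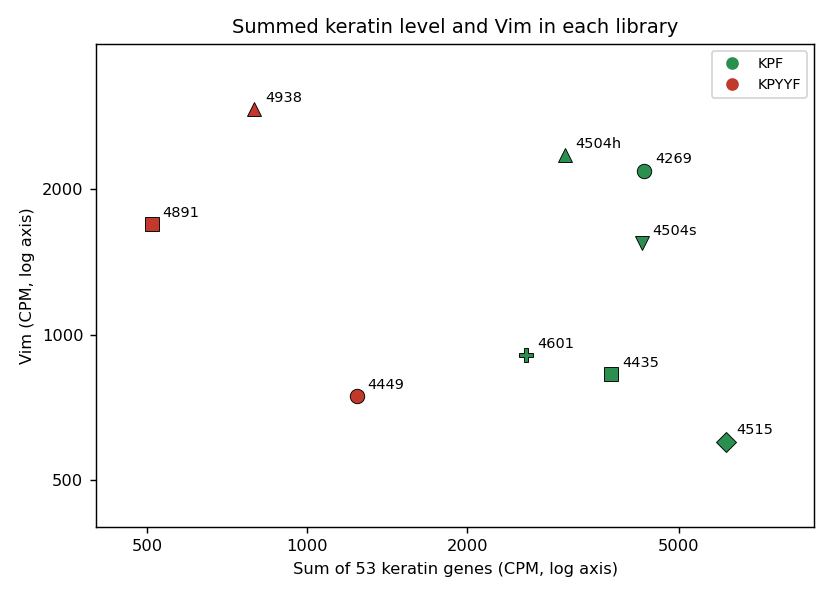
Summed level of the 53 keratin genes (x, CPM, log axis) against the level of Vim (y, CPM, log axis) in each of 6 KPF (green) and 3 KPYYF (red) libraries, labelled by mouse. All 3 KPYYF libraries lie to the left of the KPF libraries, at 1238, 510 and 794 CPM of keratin, while their Vim levels of 747, 1692 and 2935 CPM spread over the KPF range and past its top.

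Keratin filaments are tied to cell junctions by desmosomal plaque proteins and plakins. Of 18 such anchors and linkers, 17 were tested, 13 with a log2 fold change below 0 (53.3% of all genes tested) and 4 above, with a median of −0.93. On the lower side 0.794% of all genes had an adjusted p under 0.05 and 10% an unadjusted one. The 1 of the list that passed over all genes was Dsp, which encodes desmoplakin, the protein that attaches keratin filaments to desmosomes. It fell, with 77.8 to 340.5 CPM in KPF libraries and 40.8, 15.3 and 10.5 CPM in KPYYF libraries (log2 fold change −3.02, SE 0.61, edgeR quasi-likelihood test, adjusted p = 0.0357), without overlap. An unadjusted p under 0.05 was also reached, on the lower side, by the plakophilin genes Pkp2 (log2 fold change −3.55, edgeR adjusted p = 0.0514) and Pkp3 (−2.09, edgeR adjusted p = 0.266), by Itgb4 (−1.43, edgeR adjusted p = 0.142), the integrin of hemidesmosomes, and by Fam83h (−1.98, edgeR adjusted p = 0.224), which binds keratin filaments. The large linker Plec (plectin) was at 335 to 695 CPM in KPF and 289, 818 and 743 CPM in KPYYF libraries. Tchp, which encodes trichoplein, a protein bound to Krt8 and Krt18 filaments, was higher in every KPYYF library than in any KPF library (20.3 to 27.0 against 7.98 to 18.1 CPM) without passing (log2 fold change 0.75, edgeR adjusted p = 0.426). Every KPYYF library was above every KPF library for 3.92% of all genes tested, and below for 5.18%.

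Genes of squamous differentiation and of the cornified envelope did not pass in either direction. Of 20 in the files, 9 were tested, 6 with a log2 fold change below 0 (53.3% of all genes tested) and 3 above, and the median was −0.97. An unadjusted p under 0.05 was reached by 10% of all genes on the lower side and by 6.1% on the higher side. Sprr1a (−2.56, edgeR adjusted p = 0.164), Serpinb5 (−2.74, edgeR adjusted p = 0.193) and Ly6d (−2.97, edgeR adjusted p = 0.275) had an unadjusted p under 0.05 on the lower side. Sprr1b did on the higher side (edgeR adjusted p = 0.183), where 104 of its 107 counts came from KPYYF library 4938, at 11.4 CPM. Trp63, the master regulator of basal squamous cells, had 10 counts in all and none in a KPF library.

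Markers of other cells that a tumor sort could hold were followed beside the keratins. Mesothelial markers, whose cells also express simple keratins, summed to 353 to 2753 CPM in KPF libraries and to 161, 210.4 and 49.6 CPM in KPYYF libraries 4449, 4891 and 4938, so they were lower in every KPYYF library as the keratins were. Of 8 such genes, 4 to 8 were detected in KPF and 3 or 4 in KPYYF libraries. Most of the sum was Msln, which PDAC cells can also express, at 342 to 2725 and 40.5 to 202 CPM. Of the list, 6 of the 7 tested were below 0 (53.3% of all genes tested). On that side 1 passed over all genes (0.794% of all genes). That gene, Upk1b, was at 2.04 to 19.6 CPM in KPF libraries and at 0, 0.109 and 0 CPM in KPYYF libraries (edgeR quasi-likelihood test, adjusted p = 0.0277), and like Krt4 it reached the count minimum through the KPF libraries, the group where it was higher. Upk3b, to which the same applies, was at 1.60 to 22.8 CPM in KPF libraries and at 0.950, 0 and 0 CPM in KPYYF libraries. The part of mesothelial cells in the keratin levels was not tested.

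In the other marker lists the summed levels of the 2 groups overlapped. Of 10 immune markers 9 were tested, all with a log2 fold change below 0 (53.3% of all genes tested) and none with an unadjusted p under 0.05. Each of these 9 was highest in KPF library 4601, where the list summed to 9796 CPM. It summed to 429 to 1485 CPM in the other KPF libraries and to 387 to 788 CPM in KPYYF libraries. Fold changes of this list without library 4601 are not given here. Acinar markers summed to 20632 CPM in KPF library 4504s and 5933 CPM in KPYYF library 4449, and to between 66.6 and 1067 CPM in the others. Fibroblast markers summed to 417 to 5572 CPM in KPF and 1269 to 3386 CPM in KPYYF libraries, with 4 of 11 genes below 0 and 7 above. None passed over all genes, while Pdgfra, Dpt and Thy1 on the higher side and Acta2 on the lower side had an unadjusted p under 0.05, and Thy1 was higher in each KPYYF library than in any KPF library. Of all genes tested, 6.1% had such a p on the higher side and 10% on the lower side. Every KPYYF library was above every KPF library for 3.92% of them. Endothelial markers summed to 10.8 to 66.4 CPM and 10.4 to 14.8 CPM, and islet markers to 31.3 to 82.2 CPM and 22.1 to 39.2 CPM. Ductal epithelial markers summed to 3541 to 7626 CPM in KPF and 9574, 1199 and 2794 CPM in KPYYF libraries, where Spp1 alone was at 8568 CPM in library 4449, with 8 of the 9 genes below 0 and 3 passing (Cdh1, Cftr and Muc1). Of all genes tested, 53.3% were below 0 and 0.794% passed as lower. The part of the cells of these lists in the keratin values was not tested.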

How the data were processed

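RNA of sorted PDAC cells was deposited as 9 tables of raw read counts per Ensembl gene, 1 per library (6 KPF, 3 KPYYF), without normalization by the authors. The labels name 3′ end libraries (Lexogen QuantSeq Forward), whereas the study's methods describe BeadChip hybridization, and the files hold whole numbers that sum to a different total in each library, so they were treated as counts. The submitters' processing notes name STAR and HTSeq, with the build mm10, and tool versions are not given in the sources used here. Genes held 38.5 to 42.0% of reads in KPF libraries and 37.3, 38.2 and 37.7% in KPYYF libraries 4449, 4891 and 4938. Multiply aligned reads were 43.8 to 48.5% in KPF libraries and 49.2, 51.9 and 53.4% in these KPYYF libraries. Neither share overlapped between the groups, and their part in the keratin values was not tested. Multiply aligned reads, reads outside features (8.63 to 16.0%) and ambiguous ones (0.231 to 0.312%) stayed out of library sizes and tests.

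Symbols and positions came from GENCODE M21 on GRCm38 (the build mm10), matched by Ensembl identifier for 47224 of 47643 genes. Genes summing to 100 counts or more, the filter of the study's methods, numbered 14105 and were compared between KPYYF and KPF with the quasi-likelihood test of edgeR 4.0.16 (robust, TMM factors 0.833 to 1.08, no covariates) in R 4.3.3. The common biological coefficient of variation was 0.825. P values are two-sided and were adjusted by Benjamini-Hochberg across the genes tested, with a threshold of 0.05, and SE is the size of the log2 fold change over the square root of F. Alternatives were DESeq2 1.42.0, limma-voom (limma 3.58.1) with quality weights, RLE and upper quartile factors, other filters, summing 4504h and 4504s, the libraries with at least 1000 Xist reads, and leaving out each library. Scripts were tested on simulated data.

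Every tested keratin is named, with each library's value where the unadjusted p was under 0.05 or the mean at least 10 CPM, and untested keratins where a library had at least 10 counts. Of the filament, linker and squamous lists, Vim and genes with an unadjusted p under 0.05 were named, and Plec, Tchp, Trp63 and Krt5 after their values were seen. Members and lists were chosen with earlier results of these data known, and the promoter motifs after 2 of the promoters had been read. Krt74 was left out as a pseudogene in the annotation. A further allele that all mice of both groups carried is not reported here.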

Additional observations from a re-analysis of the deposited data

Results flagged for a closer look

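In the KPF group, 2 keratin values stood apart from the other 5 libraries by Dixon's criterion for 6 values, which sets the gap to the nearest value against the range. Chance alone flags about 1 in 20 groups of normally distributed values, and 15 keratins were looked at. The CPM values of sparse genes such as Krt13 are skewed, so that rate need not hold for them. Krt10 was at 25.9 CPM in library 4504h, where the next highest library had 9.05 CPM and the gap was 0.719 of the range. Krt13 was at 5.74 CPM in library 4435, where the next highest had 1.25 CPM and the gap was 0.782 of the range.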

How the results depend on the processing

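Over the 17 alternatives, no keratin passed as higher at an adjusted p under 0.05, and the median log2 fold change of the simple keratins stayed between −2.84 and −2.17. The number of keratins called lower, 2 in the report, was 7 with DESeq2, 3 with limma-voom (Krt18, Krt19 and Krt7), 1 with 4504h and 4504s summed (Krt18), 1 among the 6 libraries with at least 1000 Xist reads, and 0 to 3 when 1 library was left out. It was 0 without KPYYF library 4891 or 4938, 1 without any of KPF libraries 4269, 4435, 4504h, 4504s and 4515, and 3 without KPF library 4601 (Krt18, Krt23 and Krt8) or KPYYF library 4449 (Krt18, Krt19 and Krt7). The share of all genes called lower moved as well, from 0.794% in the report. It was 6.58% with DESeq2, 0.276% with limma-voom, 0.61% with 4504h and 4504s summed and 0.237% among the libraries with at least 1000 Xist reads. Without KPYYF library 4891, 4938 or 4449 it was 0.108, 0.0936 and 1.43%, and without 1 KPF library 0.181 to 0.841%. Krt18 passed under 15 of the 17 and Krt23 under 6, with adjusted p values from 2.05e-06 to 0.103. The median of the stratified keratins moved to −1.62 with no filter on low counts, to −1.65 with limma-voom and over −2.20 to −0.019 when 1 library was left out. Yap1 did not pass with limma-voom (−4.56, adjusted p = 0.0886), and its log2 fold change ran from −5.78 to −4.31 with 1 library left out. The sign of the following keratins, none of which passed, changed: Krt12 with limma-voom (0.35), Krt13 with limma-voom (−1.68) and among the libraries with at least 1000 Xist reads (−0.013), and Krt76 among the latter (−0.45). With 1 library left out, log2 fold changes ran from −0.61 to 0.46 for Krt12, from −5.13 to 1.69 for Krt76, from −0.075 to 0.88 for Krt14 and from −1.58 to 0.16 for Krt20. Krt13 and Krt15 had too few counts to be tested under 2 alternatives each. The causes were not tested, beyond the smaller number of libraries where libraries were left out or summed. No paired analysis was possible because the labels give no replicate numbers that the 2 groups share (replicates were numbered in accession order). Depth limits the stratified keratins, since all but Krt10 and Krt79 of those tested had a library with 0 counts, and the hair and root sheath keratins, of which 17 of 23 had no count.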
